A study of Mus musculus with 6 samples.

Results

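The genes described here are the 7 mammalian sirtuins, Sirt1 to Sirt7, and 3 genes of nicotinamide adenine dinucleotide (NAD) metabolism, Nampt, Nmrk1 and Nnmt. They were chosen by symbol, and all 10 were found among the 18253 gene symbols listed in at least 1 of 6 mouse liver RNA sequencing libraries. Every one of the 10 was listed in all 6 libraries. The mice were C57BL/6, labelled as postnatal day 21. All had cholestasis induced with alpha-naphthylisothiocyanate (ANIT), a chemical toxic to bile duct cells. The libraries labelled ANIT (n = 3) came from mice given ANIT without celastrol, and those labelled ANIT+Celastrol (n = 3) from mice that also received celastrol, a plant triterpenoid, with 5 days of treatment stated for both groups. No untreated liver was analysed here, so each value below compares celastrol-treated with ANIT-only liver and not with healthy liver. The labels name no separate animals, and the p-values therefore measure the spread between these samples, which may be technical.

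Sirtuins are deacylases that consume NAD: each removal of an acetyl or other acyl group from a lysine splits 1 NAD and releases nicotinamide. Cells rebuild NAD from nicotinamide through Nampt, the rate-limiting enzyme of the salvage pathway, or from nicotinamide riboside through the kinase Nmrk1, and the liver also makes NAD from tryptophan. Nnmt, an enzyme abundant in hepatocytes, methylates nicotinamide with S-adenosylmethionine and so removes it from the salvage cycle. Sirt1, Sirt6 and Sirt7 are mainly nuclear, Sirt2 is mainly cytosolic, and Sirt3, Sirt4 and Sirt5 are mitochondrial.

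All 8 hepatocyte markers on a fixed list were listed in every library, with a summed level of 43471 to 55864 FPKM (a read density corrected for gene length and library depth) with ANIT and 19859 to 27834 FPKM in celastrol liver. The lower sum came from Alb, the albumin gene, at 29351 to 38656 FPKM in ANIT liver and 5341 to 10051 FPKM in celastrol liver. Alb fell (log2 fold change -2.27, adjusted p = 0.0024). Of the 8 markers 6 did not pass, among them Hnf4a, a hepatocyte transcription factor (adjusted p = 0.56). Serpina1c, a serine protease inhibitor gene, rose, but this call was lost in 8 of 15 alternatives, among them the removal of any 1 library other than celastrol replicate 2 (adjusted p 0.052 to 0.29 over the 8). Neutrophil markers summed to 34.1 to 58.7 FPKM in ANIT liver and 69.0 to 93.7 FPKM in celastrol liver, and 3 of 6 tested rose (S100a8, S100a9 and Ly6g). Each of these 3 calls was lost when celastrol replicate 1 or 3 or ANIT replicate 3 was left out (adjusted p 0.052 to 0.11 over all settings that lost one). Of the remaining marker lists, cholangiocyte markers summed to 44.7 to 52.1 against 21.6 to 50.7 FPKM, with Krt19 lower (not passing if ANIT replicate 2 or celastrol replicate 1 was removed, with adjusted p 0.054 to 0.057). Cftr was at 0 in all celastrol libraries, but at only 0.02 to 0.05 FPKM in ANIT liver, too low to be tested. Kupffer cell and macrophage markers summed to 85.7 to 213 against 151 to 223 FPKM, sinusoidal endothelial markers to 32.5 to 58.0 against 48.4 to 92.1 FPKM (Stab2 rose, but not without celastrol replicate 1, adjusted p 0.057), and stellate cell markers to 18.9 to 35.7 against 15.0 to 52.2 FPKM. Erythroid markers summed to 229 to 428 against 49.0 to 226 FPKM. Lymphocyte markers stayed at or under 2.60 FPKM in sum. In bulk liver, a change in the number of cells of a type and a change in RNA per cell cannot be told apart, and the part of these shifts in the results below was not tested. Estimated depth was 18940000 to 19840000 reads per library. The 10 most abundant genes of a library held 20.3 to 21.9% of all FPKM in ANIT liver, but 33.2% and 31.5% in celastrol replicates 1 and 3 and 20.7% in celastrol replicate 2.

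The comparison of celastrol with ANIT was made on log2(FPKM + 1) with limma over all 10593 genes that reached 1 FPKM in at least 3 libraries, and p-values were adjusted over all of these by the Benjamini-Hochberg method, with 0.05 as the threshold. All 10 genes passed the abundance filter. Of the 10, Nnmt rose and Nampt, Nmrk1 and Sirt5 fell, and 6 sirtuins did not pass. Among all tested genes 25.0% passed (4.41% higher and 20.6% lower), and the groups did not overlap for 44.9% (8.35% higher and 36.6% lower), and 4 calls among 10 genes are not read as particular to them. The median log2 fold change was -0.04 for the 10 genes, 0.00 for the 7 sirtuins and -0.17 for all tested genes. The count of 3 falls became 0 without celastrol replicate 1, 1 without ANIT replicate 2, and 1 after quantile normalization.

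**Figure D1:**
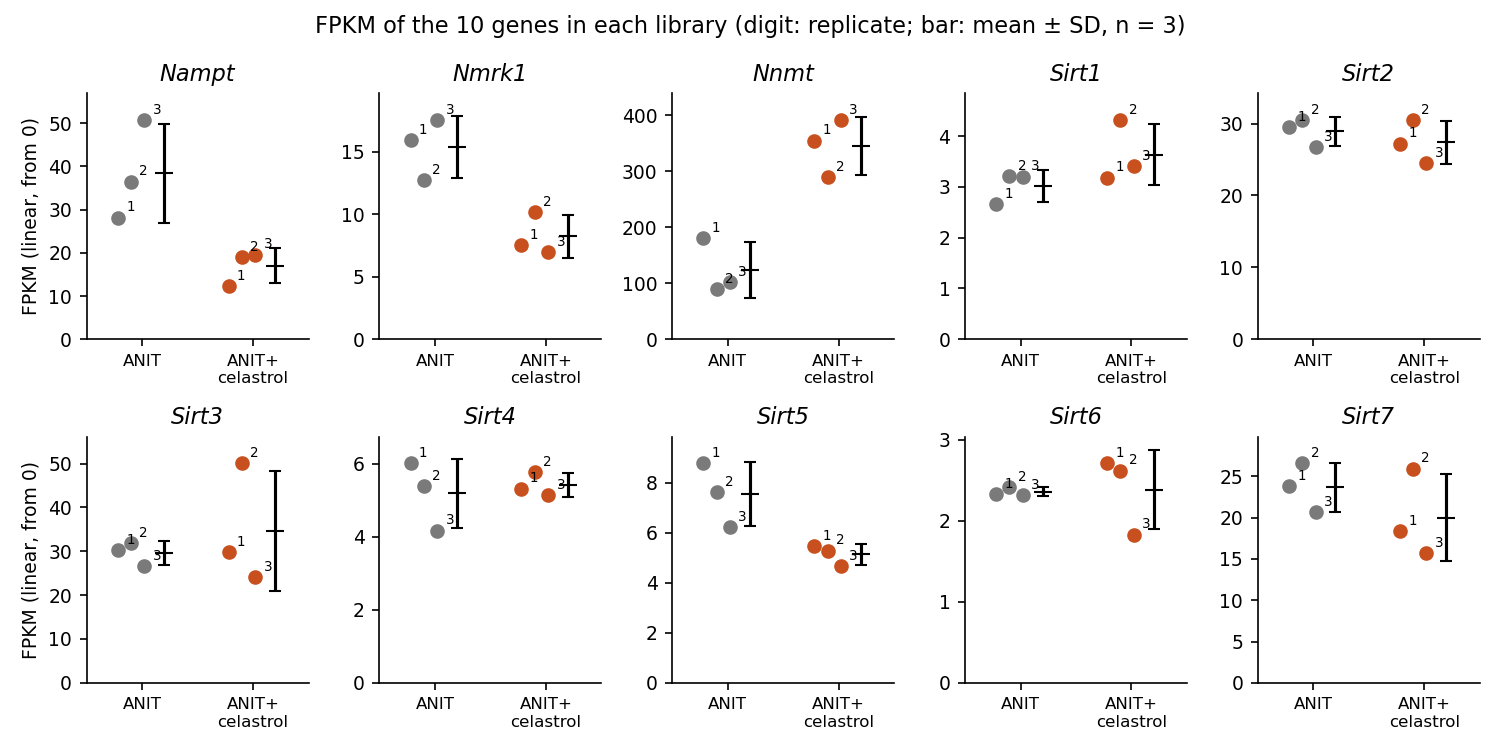
FPKM (linear axes from 0) of each of the 10 genes in the 3 ANIT libraries (grey) and 3 celastrol libraries (orange), with digits for replicate numbers and bars for mean ± SD (n = 3). The groups are apart for Nampt, Nmrk1, Nnmt and Sirt5 and overlap for the other 6 genes.

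Promoter sequences of 300 bases (250 before and 50 after the annotated start) were available from RefSeq on GRCm38.p6 for 9 of the 10 genes. Those of Nampt and Nmrk1, which fell in the same libraries, are shown beside that of Sirt1, which did not pass. They are read 5′ to 3′ on the gene's strand, at chr12:32820085-32820384 (plus strand) for Nampt, chr19:18631766-18632065 (plus strand) for Nmrk1 and chr10:63338986-63339285 (minus strand) for Sirt1. Capitals mark matches, on either strand, to any of 6 motifs: the E-box CACGTG bound by clock factors, the STAT motif TTCNNNGAA, the antioxidant response element core TGACNNNGC, the cyclic AMP response element TGACGTCA, the Sp1 GC box GGGCGG and the AP-1 motif TGANTCA.
Nampt: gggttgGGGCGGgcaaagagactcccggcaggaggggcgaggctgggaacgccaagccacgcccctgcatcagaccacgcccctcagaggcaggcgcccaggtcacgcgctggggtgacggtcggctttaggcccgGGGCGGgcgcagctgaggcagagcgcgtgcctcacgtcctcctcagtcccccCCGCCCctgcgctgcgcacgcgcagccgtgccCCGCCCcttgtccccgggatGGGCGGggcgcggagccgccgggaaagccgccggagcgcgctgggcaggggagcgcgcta
Nmrk1: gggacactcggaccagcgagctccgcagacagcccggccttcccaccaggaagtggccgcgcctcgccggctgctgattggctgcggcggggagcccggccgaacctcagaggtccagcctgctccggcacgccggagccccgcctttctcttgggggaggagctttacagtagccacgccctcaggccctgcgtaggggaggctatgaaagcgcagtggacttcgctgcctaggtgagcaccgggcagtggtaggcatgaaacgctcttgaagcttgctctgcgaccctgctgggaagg
Sirt1: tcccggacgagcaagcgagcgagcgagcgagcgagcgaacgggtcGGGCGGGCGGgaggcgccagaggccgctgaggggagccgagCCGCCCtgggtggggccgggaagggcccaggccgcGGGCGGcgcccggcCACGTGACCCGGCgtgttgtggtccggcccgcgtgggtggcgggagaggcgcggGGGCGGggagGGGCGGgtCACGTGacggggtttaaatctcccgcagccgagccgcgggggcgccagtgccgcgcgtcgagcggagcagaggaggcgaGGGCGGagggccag
The Nampt window held 5 GC boxes and no match to the other 5 motifs, and the Nmrk1 window held no match to any of the 6. The Sirt1 window held 7 GC boxes, 2 E-boxes and 1 antioxidant response element core, which overlaps the first of the E-boxes. GC content was 76.3% for Nampt, 67.3% for Nmrk1 and 79.0% for Sirt1, where the median of all 32851 promoters in the table was 52.7%. A GC box was present in at least 1 window of 7 of the 9 genes and in 35.7% of all promoters. An E-box was present in 1 of the 9 genes (Sirt1) and in 7.15% of all promoters. Sirt7 was the 1 gene of the 9 with a STAT motif (8.30% of all promoters), an antioxidant core was present in 3 of the 9 (12.4% of all promoters), and the cyclic AMP and AP-1 motifs in none (1.79% and 7.81% of all promoters). These letter matches describe the windows and say nothing of binding.

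Nampt, which converts nicotinamide to nicotinamide mononucleotide (chromosome 12, positions 32819545 to 32853349 in mm10), measured 28.13, 36.45 and 50.75 FPKM in ANIT replicates 1, 2 and 3 and 12.36, 19.07 and 19.58 FPKM in celastrol replicates 1, 2 and 3. The lowest ANIT library lay above the highest celastrol library. The mean fell from 38.4 ± 11.4 to 17.0 ± 4.03 FPKM (SD, n = 3 each), 2.26-fold lower, with a log2 fold change of -1.12 (SE 0.25, 95% interval -1.71 to -0.53, adjusted p = 0.019). Leaving out ANIT replicate 2 gave an adjusted p of 0.063 and leaving out celastrol replicate 1 gave 0.059, both above 0.05, and so did quantile normalization (log2 fold change -0.83, adjusted p = 0.072).

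Nmrk1, the nicotinamide riboside kinase (chromosome 19, positions 18631950 to 18652428), measured 15.89, 12.70 and 17.54 FPKM in ANIT liver and 7.52, 10.18 and 6.99 FPKM in celastrol liver. Again no celastrol library reached the lowest ANIT library, and celastrol replicate 2 was the highest of its group. The mean fell from 15.4 ± 2.46 to 8.23 ± 1.71 FPKM (SD, n = 3 each), 1.87-fold lower, with a log2 fold change of -0.83 (SE 0.16, 95% interval -1.21 to -0.45, adjusted p = 0.012). The call was lost without celastrol replicate 1 (adjusted p = 0.053). The muscle-type kinase Nmrk2 stayed at or below 0.34 FPKM in every library, under the filter.

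Nnmt (chromosome 9, positions 48591877 to 48605153) was the most abundant of the 10 genes in every library, and moved the other way. It measured 180.57, 89.05 and 102.3 FPKM in ANIT liver and 354.84, 289.73 and 391.94 FPKM in celastrol liver. The highest ANIT library, replicate 1, lay well below the lowest celastrol library, replicate 2. The mean rose from 124 ± 49.5 to 346 ± 51.7 FPKM (SD, n = 3 each), 2.79-fold higher, with a log2 fold change of 1.53 (SE 0.27, 95% interval 0.90 to 2.16, adjusted p = 0.0081). The rise passed under every scaling tried and without any 1 library (log2 fold change 1.33 to 1.83 over 17 alternatives). It did not pass a test against a fold of 1.5 (adjusted p = 0.14), nor did Nampt (adjusted p = 0.57).

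Since Nnmt and Nampt both use nicotinamide, their ratio within a library was taken as a measure that does not change when all values of a library are multiplied by 1 factor. Nnmt exceeded Nampt 6.42, 2.44 and 2.02 times in the ANIT libraries, in replicate order, against 28.7, 15.2 and 20.02 times after celastrol. The lowest celastrol ratio was thus above the highest ANIT ratio, and the means were 3.63 ± 2.43 and 21.3 ± 6.85 (SD, n = 3 each). The ratio of Nnmt to Nmrk1 showed the same separation, from 5.83 to 11.4 with ANIT and from 28.5 to 56.1 with celastrol. Between the enzymes of NAD salvage themselves, the ratio of Nampt to Nmrk1 overlapped, at 1.77 to 2.89 with ANIT and 1.64 to 2.80 with celastrol. These ratios rest on genes already described and were not tested.

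**Figure D2:**
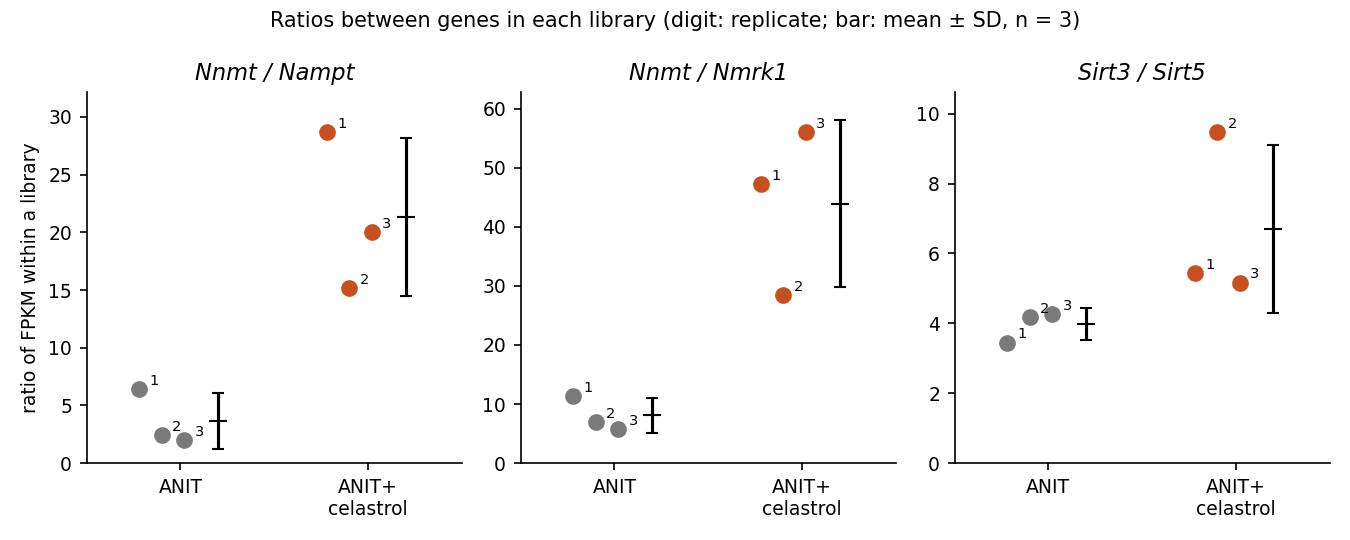
Ratios of FPKM between genes within each library (linear axes from 0), with digits for replicate numbers and bars for mean ± SD (n = 3). Nnmt to Nampt and Nnmt to Nmrk1 separate the groups widely, whereas the separation of Sirt3 to Sirt5 is large only for celastrol replicate 2, at 9.48.

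Among the sirtuins, Sirt5, the mitochondrial enzyme that removes succinyl, malonyl and glutaryl groups (chromosome 13, positions 43365496 to 43395203), was the 1 that passed. It measured 8.77, 7.61 and 6.22 FPKM in ANIT liver and 5.47, 5.28 and 4.66 FPKM in celastrol liver. The groups did not overlap, although ANIT replicate 3 lay close to celastrol replicate 1. The mean fell from 7.53 ± 1.28 to 5.14 ± 0.424 FPKM (SD, n = 3 each), 1.47-fold lower, with a log2 fold change of -0.47 (SE 0.13, 95% interval -0.77 to -0.17, adjusted p = 0.035). This call sat close to the threshold: it was lost in 9 of 17 alternatives, among them median-ratio scaling (log2 fold change -0.31, adjusted p = 0.12), quantile normalization (-0.28, adjusted p = 0.15), the fit without the filter (adjusted p = 0.067), and the removal of ANIT replicate 1 (0.099) or 2 (0.11), or of celastrol replicate 1 (0.082) or 3 (0.10).

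The other mitochondrial sirtuins did not pass. Sirt3, the main mitochondrial deacetylase (chromosome 7, positions 140863666 to 140882309), measured 30.25, 31.90 and 26.60 FPKM in ANIT liver and 29.80, 50.07 and 24.08 FPKM in celastrol liver. Celastrol replicate 2 stood apart from the other 5 libraries, and without it the log2 fold change turned from 0.16 (95% interval -0.43 to 0.75, adjusted p = 0.67) to -0.13 (adjusted p = 0.45). Exons of Sirt3 share 342 bases with Psmd13 and 418 bases with Ric8a on the opposite strand, and the strand setting of the counting is not given in the sources used here. Psmd13 measured 40.42 to 41.86 FPKM in ANIT liver and 32.45, 37.68 and 32.00 FPKM after celastrol, where replicate 2 was highest as for Sirt3. Ric8a measured 9.57 to 10.38 FPKM in ANIT liver and 9.48, 8.07 and 8.55 FPKM after celastrol, and how far reads of the shared bases enter the Sirt3 values was not tested. Sirt4, an ADP-ribosyltransferase and lipoamidase that restrains pyruvate dehydrogenase and glutamate dehydrogenase (chromosome 5, positions 115478010 to 115484725), measured 6.01, 5.38 and 4.17 FPKM in ANIT liver and 5.32, 5.77 and 5.13 FPKM in celastrol liver. The celastrol values lay within the ANIT range (log2 fold change 0.06, 95% interval -0.24 to 0.36, adjusted p = 0.75). Within libraries, Sirt3 exceeded Sirt5 3.45 to 4.28 times with ANIT against 5.45, 9.48 and 5.17 times after celastrol, in replicate order. Sirt3, Sirt4 and Sirt5 together made up 41.2 to 43.6% of the sirtuin FPKM sum with ANIT and 42.7 to 49.1% with celastrol.

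Sirt1, the nuclear deacetylase that acts on the bile acid receptor FXR, PGC-1alpha and the p65 subunit of NF-kB (chromosome 10, positions 63319005 to 63381704), was 1 of the least abundant of the 10 genes. It measured 2.66, 3.21 and 3.20 FPKM in ANIT liver and 3.18, 4.32 and 3.41 FPKM in celastrol liver. Celastrol replicate 1 fell inside the ANIT range and replicate 2 was the highest, with a log2 fold change of 0.20 (95% interval -0.09 to 0.49, adjusted p = 0.26). Sirt6, a chromatin-bound deacetylase that restrains glycolytic genes (chromosome 10, positions 81621785 to 81627797), measured 2.33, 2.42 and 2.32 FPKM in ANIT liver and 2.71, 2.62 and 1.83 FPKM in celastrol liver. The ANIT libraries were nearly alike and the celastrol libraries lay on both sides of them (log2 fold change 0.00, 95% interval -0.29 to 0.30, adjusted p = 0.99). The value of Sirt6 rests on about 101 to 149 reads a library, estimated from its exon length and the depth, for which counting alone gives an error of about 9.95% at the fewest reads. For the other 9 genes the estimate was 198 reads or more.

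Sirt2, the mainly cytosolic deacetylase (chromosome 7, positions 28766735 to 28788661), was the most even of the abundant sirtuins, at 29.50, 30.50 and 26.68 FPKM in ANIT liver and 27.21, 30.51 and 24.52 FPKM in celastrol liver. The ranges overlapped almost fully (log2 fold change -0.08, 95% interval -0.36 to 0.20, adjusted p = 0.67), and the sign turned under median-ratio scaling (0.10) and quantile normalization (0.22). Sirt7, a nucleolar deacetylase tied to ribosomal RNA transcription (chromosome 11, positions 120618372 to 120625240), measured 23.79, 26.59 and 20.66 FPKM in ANIT liver and 18.39, 25.94 and 15.71 FPKM in celastrol liver. Replicates 1 and 3 of the celastrol group lay below all ANIT libraries and replicate 2 among them (log2 fold change -0.25, 95% interval -0.69 to 0.18, adjusted p = 0.35). Without celastrol replicate 2, Sirt7 passed as lower (log2 fold change -0.45, adjusted p = 0.040), and after quantile normalization the sign turned (0.03, adjusted p = 0.91). Sirt7 exons share 124 bases with those of Mafg on the same strand. Mafg, a small Maf partner of Nrf2, fell (log2 fold change -1.26, adjusted p = 0.0024), and how far reads of the shared bases enter the Sirt7 values was not tested.

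**Figure D3:**
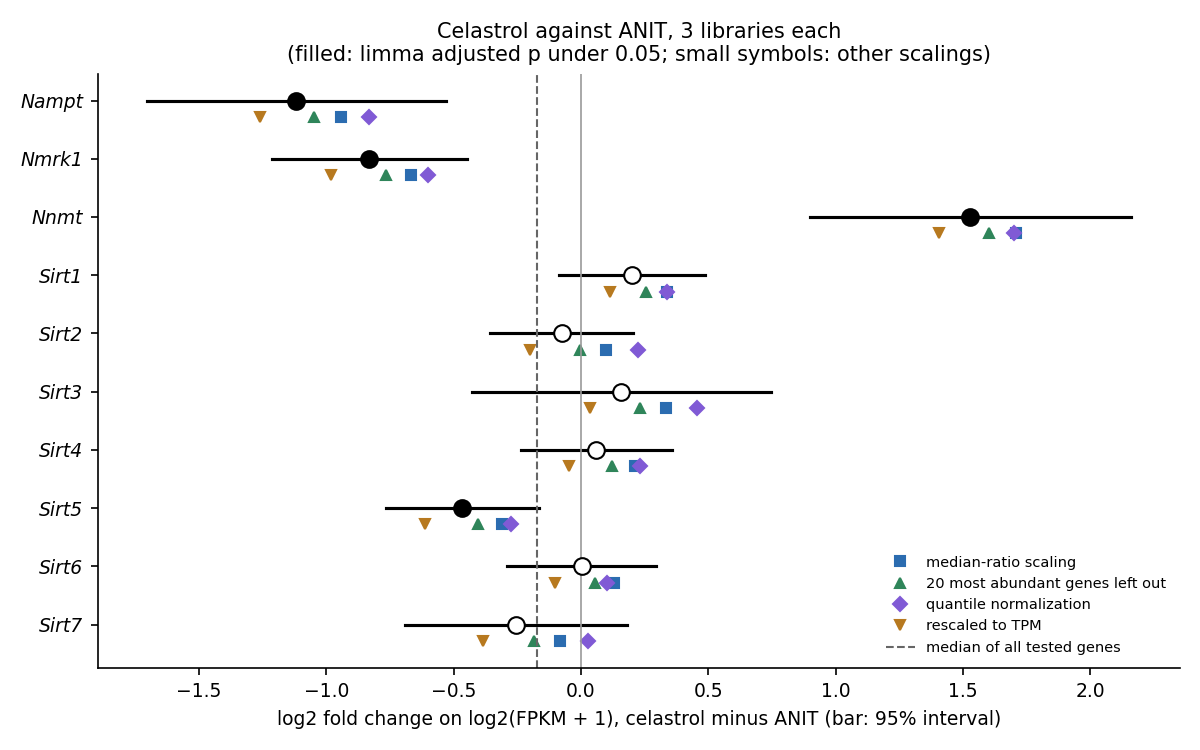
Log2 fold change on log2(FPKM + 1), celastrol minus ANIT, for the 10 genes (large symbols, filled where the limma adjusted p is under 0.05) with 95% intervals, and under 4 other scalings (small symbols). The dashed line marks the median of all tested genes, -0.17. Nnmt, Nampt and Nmrk1 keep their sides of 0 under every scaling shown, whereas Sirt2, Sirt4, Sirt6 and Sirt7 cross it in at least 1.

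FPKM is per length, so levels can be set side by side between genes, but only roughly. The gene lengths behind the values are not given, and exons of Sirt2, Sirt3 and Sirt7 share bases with other genes. How far this moves the order and shares below was not tested. In ANIT liver the order of mean FPKM was Nnmt, Nampt, Sirt3, Sirt2, Sirt7, Nmrk1, Sirt5, Sirt4, Sirt1 and Sirt6. The ranges of Nampt and Sirt3 and those of Sirt3 and Sirt2 overlapped, and all other neighbours in the order were separate. With celastrol the order became Nnmt, Sirt3, Sirt2, Sirt7, Nampt, Nmrk1, Sirt4, Sirt5, Sirt1 and Sirt6, so Nampt moved from the second place to the fifth. Here the neighbouring ranges overlapped for Sirt3 and Sirt2, Sirt2 and Sirt7, Sirt7 and Nampt, and Sirt4 and Sirt5. The summed sirtuin level was 89.9 to 108 FPKM in ANIT liver and 79.3 to 125 FPKM in celastrol liver, and Sirt2, Sirt3 and Sirt7 made up 80.9 to 82.7% and 81.1 to 85.6% of it. Among tested genes of a library, Nnmt stood at percentile 93.1 to 98.7 and Sirt6 at percentile 15.7 to 24.9.

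The salvage enzymes around Nampt and Nmrk1 were described from a list of NAD salvage and Preiss-Handler genes, of which 9 were tested. Nampt, Nmrk1 and Nt5e fell, Pnp rose and 5 did not pass (median log2 fold change -0.16). This median lay near the -0.17 of all tested genes, of which 20.6% fell and 4.41% rose. The counts are not read as particular to this list. Nt5e, the surface 5′-nucleotidase CD73, measured 4.49, 4.85 and 1.97 FPKM in ANIT liver and 0.98, 1.35 and 1.18 FPKM in celastrol liver (log2 fold change -1.08, adjusted p = 0.023). Pnp, the phosphorylase that splits purine nucleosides and nicotinamide riboside, measured 32.36, 44.29 and 42.23 FPKM in ANIT liver and 72.83, 52.82 and 78.86 FPKM in celastrol liver (log2 fold change 0.76, adjusted p = 0.026). Both separated the groups, but ANIT replicate 3 was low for Nt5e and celastrol replicate 2 was low for Pnp. Nt5e no longer passed when ANIT replicate 1, ANIT replicate 2, celastrol replicate 1 or celastrol replicate 3 was left out (adjusted p 0.066 to 0.086), and the Pnp call without any 1 ANIT library, without celastrol replicate 1 or 3 and without the filter (adjusted p 0.051 to 0.095). Naprt, which starts NAD synthesis from nicotinic acid, had a log2 fold change of 0.38 and missed the threshold (adjusted p = 0.073). Of the enzymes that complete NAD, Nmnat1 (log2 fold change -0.16, adjusted p = 0.34) and Nmnat3 (-0.07, adjusted p = 0.72) did not pass. Nadsyn1, the NAD synthetase, measured 13.29, 10.20 and 9.24 FPKM in ANIT liver and 6.84, 9.27 and 7.07 FPKM in celastrol liver. Its groups overlapped and it missed the threshold (log2 fold change -0.44, adjusted p = 0.076).

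The route from tryptophan to NAD held 11 tested genes, of which Haao and Qprt rose, Acmsd and Ccbl2 fell and 7 did not pass. The median log2 fold change was 0.38, against -0.17 for all tested genes, of which 4.41% rose and 20.6% fell. The list was not tested as a set. Acmsd, the decarboxylase that diverts the pathway away from NAD, measured 38.92, 31.52 and 27.77 FPKM in ANIT liver and 4.89, 8.17 and 9.42 FPKM in celastrol liver. Every celastrol library was far below every ANIT library (log2 fold change -2.02, SE 0.23, adjusted p = 0.0019). Qprt, which turns quinolinic acid into the NAD precursor nicotinic acid mononucleotide, measured 71.01, 72.94 and 74.74 FPKM in ANIT liver and 100.43, 106.95 and 93.04 FPKM in celastrol liver (log2 fold change 0.45, adjusted p = 0.029). Haao, which makes the precursor of quinolinic acid, measured 155.18, 175.88 and 157.03 FPKM in ANIT liver and 234.36, 339.64 and 223.59 FPKM in celastrol liver (log2 fold change 0.68, adjusted p = 0.033). Both genes were higher in all 3 celastrol libraries than in any ANIT library. The Acmsd fall passed under every scaling tried and without any 1 library. Haao no longer passed when an ANIT library or celastrol replicate 1 was left out, or with no filter (adjusted p 0.062 to 0.096), and the Qprt call without any 1 ANIT library or celastrol replicate 1 and when rescaled to TPM (adjusted p 0.055 to 0.11).

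Ccbl2, a kynurenine aminotransferase of the side branch to kynurenic acid, fell from 102 ± 1.94 to 59.1 ± 4.64 FPKM (SD, n = 3 each, log2 fold change -0.78, adjusted p = 0.0049). Tdo2, the first enzyme of the route, measured 662.79, 619.81 and 559.74 FPKM in ANIT liver and 695.67, 863.46 and 914.21 FPKM in celastrol liver. The groups did not overlap, but the difference missed the threshold (log2 fold change 0.42, adjusted p = 0.098). Kmo, another enzyme of the route, measured 115.24 to 158.53 FPKM in ANIT liver and 95.37 to 104.00 FPKM in celastrol liver. It was lower but also missed the threshold (log2 fold change -0.43, adjusted p = 0.068). Of the 11 genes, the groups did not overlap for 5 that were higher and 3 that were lower (8.35% and 36.6% of all tested genes). Under median-ratio scaling and under quantile normalization, which move the median of all genes to -0.02 and 0.01, 5 genes of the route rose and 2 fell.

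**Figure D4:**
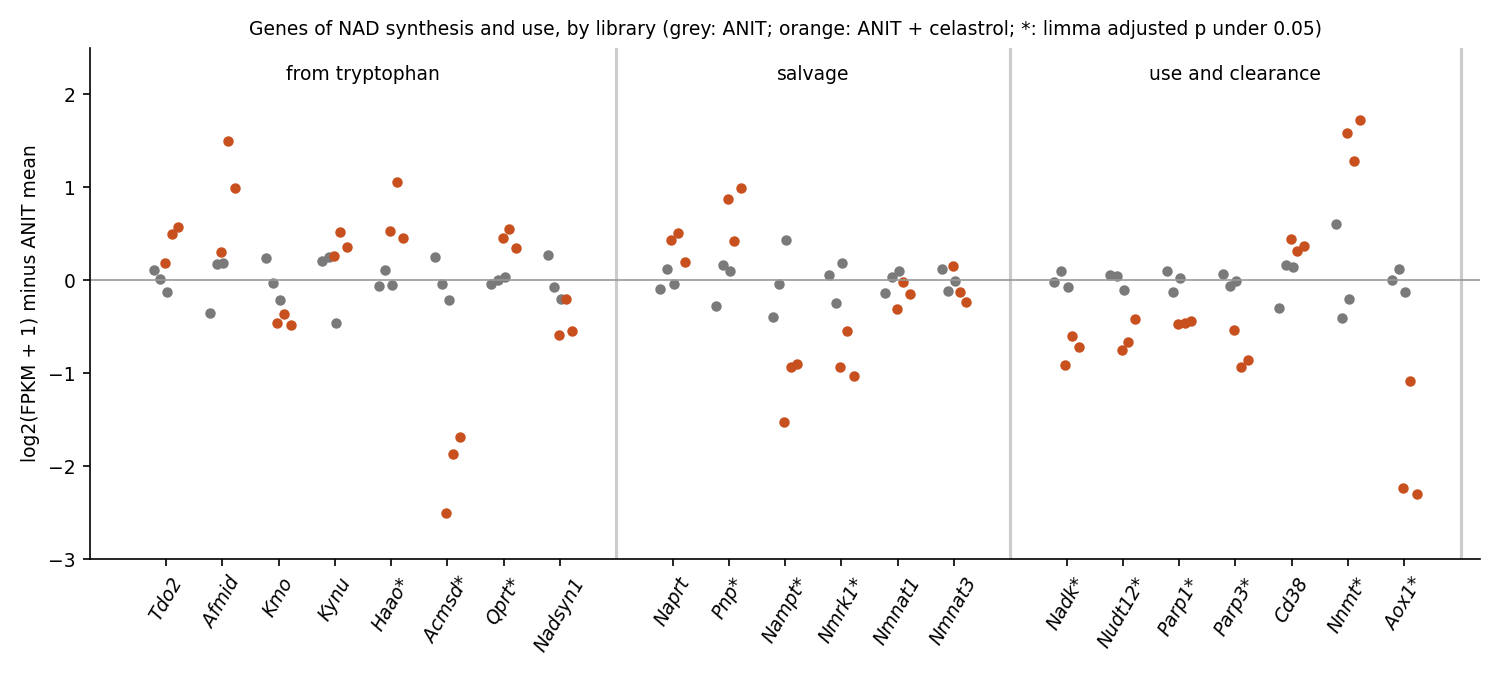
Log2(FPKM + 1) minus the mean of the ANIT libraries for 21 genes of NAD synthesis and use, with 1 point per library (grey for ANIT, orange for celastrol) and asterisks at limma adjusted p under 0.05. Acmsd, Nampt, Nmrk1, Nadk and Aox1 lie below 0 in all 3 celastrol libraries, and Nnmt, Pnp, Haao and Qprt above it.

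Nnmt draws its methyl group from S-adenosylmethionine, and 10 genes of nicotinamide methylation and methyl donor supply were tested, Nnmt among them. Besides Nnmt, Mat1a and Ahcy rose, Mat2a and Aox1 fell, and 5 did not pass (median log2 fold change 0.01). Over all tested genes the median was -0.17, with 4.41% higher and 20.6% lower, and the list was not tested as a set. Mat1a, the S-adenosylmethionine synthetase of mature hepatocytes, measured 986, 530 and 630 FPKM in ANIT liver and 1470, 1361 and 1977 FPKM in celastrol liver (log2 fold change 1.19, adjusted p = 0.016). Mat2a, the form used outside the liver and in growing hepatocytes, measured 35.91, 37.11 and 34.56 FPKM in ANIT liver and 21.33, 27.28 and 18.75 FPKM in celastrol liver (log2 fold change -0.67, adjusted p = 0.016). Neither gene had overlapping groups, and ANIT replicate 1 was the highest ANIT library for Mat1a as it was for Nnmt. Ahcy, which clears the S-adenosylhomocysteine that methylation leaves, rose from 384 ± 54.0 to 652 ± 101 FPKM (SD, n = 3 each, log2 fold change 0.76, adjusted p = 0.020). Aox1, an oxidase of methylated nicotinamide, measured 29.72, 32.34 and 27.05 FPKM in ANIT liver and 5.54, 13.52 and 5.23 FPKM in celastrol liver (log2 fold change -1.87, adjusted p = 0.0099). The related Aox3 spread from 7.71 to 86.32 FPKM within the celastrol group and did not pass (adjusted p = 0.69). The calls of Mat1a (without ANIT replicate 2 or 3 or celastrol replicate 1, and after quantile normalization), Mat2a (without ANIT replicate 2 or celastrol replicate 1) and Ahcy (without ANIT replicate 2 or 3 or celastrol replicate 3) were lost at adjusted p of 0.054 to 0.068, 0.066 to 0.068 and 0.055 to 0.086.

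Of 9 tested genes that phosphorylate, cleave or carry NAD, Nadk, Nudt12 and Slc25a17 fell and none rose (limma, 0 higher and 4 lower at an unadjusted p under 0.05). Over all tested genes 20.6% fell and 4.41% rose, and the list was not tested as a set. Nadk, the cytosolic NAD kinase that makes NADP, measured 65.49, 71.30 and 63.07 FPKM in ANIT liver and 35.00, 43.53 and 40.22 FPKM in celastrol liver (log2 fold change -0.74, adjusted p = 0.0071). Slc25a17, a peroxisomal carrier of NAD and other cofactors, had a log2 fold change of -0.92 (adjusted p = 0.0054), and Nudt12, a peroxisomal NADH pyrophosphatase, of -0.61 (adjusted p = 0.011). The Nudt12 call was lost under median-ratio scaling and quantile normalization (adjusted p 0.061 to 0.095). Without celastrol replicate 2, 5 genes of the group fell, and over all tested genes 3326 fell, against 2185 in the main fit. Slc25a51, the mitochondrial NAD carrier, measured 17.44 to 28.07 FPKM in ANIT liver and 17.58 to 30.47 FPKM in celastrol liver and did not pass (adjusted p = 0.98).

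Besides sirtuins, poly(ADP-ribose) polymerases and CD38 use up NAD. Of 17 tested genes of this group Parp1 and Parp3 fell and none rose (limma, 1 higher and 5 lower at an unadjusted p under 0.05). Among all tested genes 20.6% fell and 4.41% rose, and the counts are not read as particular to this group. Parp1, the main DNA-damage sensor among them, measured 10.82, 9.16 and 10.22 FPKM in ANIT liver and 6.95, 7.06 and 7.16 FPKM in celastrol liver (log2 fold change -0.46, adjusted p = 0.013). Parp3, a relative that acts on DNA breaks, had a log2 fold change of -0.77 (adjusted p = 0.0057). Cd38, the main NAD glycohydrolase of immune and endothelial cells, measured 3.90, 5.75 and 5.64 FPKM in ANIT liver and 7.23, 6.51 and 6.79 FPKM in celastrol liver, a difference that missed the threshold (log2 fold change 0.38, adjusted p = 0.082). The Parp1 call was lost under median-ratio scaling, after quantile normalization and without celastrol replicate 1 (adjusted p 0.057 to 0.14), and under quantile normalization 2 genes of the group rose and 1 fell. When rescaled to TPM 5 fell, and 4 without celastrol replicate 2. Over all tested genes 3813 and 3326 fell in these 2 settings, against 2185 in the main fit.

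Among 16 tested regulators and nuclear partners of sirtuins, Nr1h4 and Stat3 rose, Trp53, Hif1a, Rela and Rps19bp1 fell, and 10 did not pass. The median log2 fold change was -0.09, against -0.17 for all tested genes, of which 4.41% rose and 20.6% fell. These counts are not read as particular to this list. Rps19bp1 encodes AROS, an activator of Sirt1, and measured 10.89, 12.98 and 12.24 FPKM in ANIT liver and 7.87, 9.32 and 8.76 FPKM in celastrol liver (log2 fold change -0.43, adjusted p = 0.024). Ccar2, which encodes the Sirt1 inhibitor DBC1, did not pass (log2 fold change -0.09, adjusted p = 0.52). Trp53, the gene of the p53 substrate of Sirt1, had a log2 fold change of -0.72 (adjusted p = 0.0036), Hif1a of -0.42 (adjusted p = 0.015) and Rela of -0.44 (adjusted p = 0.019). Stat3, a transcription factor of the acute phase response, had a log2 fold change of 0.53 (adjusted p = 0.018), and Nr1h4, which encodes FXR, of 1.22 (adjusted p = 0.00083). Ppargc1a, the gene of PGC-1alpha, measured 2.97, 3.13 and 2.84 FPKM in ANIT liver and 1.11, 2.22 and 2.24 FPKM in celastrol liver and missed the threshold (adjusted p = 0.068). When rescaled to TPM, and also without celastrol replicate 2, 7 of these genes fell. Over all tested genes 3813 and 3326 fell in these 2 settings, against 2185 in the main fit. Under median-ratio scaling and under quantile normalization 2 rose and 1 fell, with Rela, Hif1a and Rps19bp1 no longer passing (adjusted p 0.052 to 0.20 over the alternatives that lost them). Those calls were also lost without ANIT replicate 2 or celastrol replicate 1, as was that of Stat3 (adjusted p 0.072 to 0.088), and for Rela and Rps19bp1 without ANIT replicate 3 or celastrol replicate 3.

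Of 19 tested enzymes and other proteins described as substrates of the mitochondrial sirtuins, Pdha1, Acadl and Got2 fell and none rose (limma, 0 higher and 5 lower at an unadjusted p under 0.05), with a median log2 fold change of -0.32. The median of all tested genes was -0.17, with 20.6% lower and 4.41% higher, and the counts are not read as particular to this list. Pdha1, a subunit of pyruvate dehydrogenase, measured 51.41, 50.81 and 41.13 FPKM in ANIT liver and 22.48, 29.85 and 24.00 FPKM in celastrol liver (log2 fold change -0.89, adjusted p = 0.0069). Acadl, a long-chain acyl-CoA dehydrogenase, had a log2 fold change of -0.72 (adjusted p = 0.038), and Got2, the mitochondrial aspartate aminotransferase, of -0.50 (adjusted p = 0.049). Cps1, the urea cycle enzyme modified by Sirt5 (log2 fold change -0.12, adjusted p = 0.68), and Sod2, the superoxide dismutase deacetylated by Sirt3 (-0.10, adjusted p = 0.63), did not pass. Neither Acadl nor Got2 passed when an ANIT library, celastrol replicate 1 or celastrol replicate 3 was left out, with no filter or after quantile normalization, and Got2 also failed under median-ratio scaling and without the robust variance (adjusted p 0.052 to 0.13 for Acadl and 0.051 to 0.16 for Got2). After quantile normalization 2 genes of the list rose and 1 fell. Without celastrol replicate 2, 8 fell, and 7 when rescaled to TPM. Over all tested genes 3326 and 3813 fell in these 2 settings, against 2185 in the main fit.

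The zinc-dependent histone deacetylases need no NAD. Of 10 tested, 0 passed in limma (0 higher and 2 lower at an unadjusted p under 0.05), where 25.0% of all tested genes passed. The median log2 fold change was -0.09 for these deacetylases, 0.00 for the sirtuins and -0.17 for all tested genes. Hdac8 measured 2.79, 3.01 and 2.48 FPKM in ANIT liver and 2.04, 1.66 and 2.11 FPKM in celastrol liver and lay at the threshold (log2 fold change -0.36, adjusted p = 0.050). Hdac3, the deacetylase of the NCoR corepressor complex, had a log2 fold change of -0.27 (adjusted p = 0.10). When rescaled to TPM 3 of the 10 fell, and after quantile normalization 1 rose. Over all tested genes 3813 fell and 873 rose in these 2 settings, against 2185 and 467 in the main fit.

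Nampt is a known target of the circadian clock, and 16 clock genes were tested. Of these 1 rose, 2 fell and 13 did not pass (median log2 fold change -0.27). Over all tested genes 4.41% rose and 20.6% fell, and the counts are not read as particular to clock genes. Nfil3, a repressor of D-box genes, rose, from 7.15 ± 1.84 to 21.8 ± 3.74 FPKM (SD, n = 3 each, log2 fold change 1.496, adjusted p = 0.0024). Per2, a core repressor, fell from 7.90 ± 1.30 to 3.96 ± 0.924 FPKM (SD, n = 3 each, log2 fold change -0.85, adjusted p = 0.0096), and Ciart had a log2 fold change of -1.40 (adjusted p = 0.031). The clock output gene Dbp measured 9.13, 9.88 and 19.84 FPKM in ANIT liver and 4.57, 33.57 and 0.72 FPKM in celastrol liver. The ANIT libraries had the same order for Dbp as for Nampt, and the celastrol libraries did not. The time of day at which livers were taken is not given in the sources used here, and its part in the Nampt difference was not tested. The Ciart call was lost in several alternatives (adjusted p 0.050 to 0.10). Among these were the removal of any 1 ANIT library or of celastrol replicate 1 or 3, quantile normalization and the fit without the filter. Without celastrol replicate 2, 7 clock genes fell, and over all tested genes 3326 fell, against 2185 in the main fit.

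Finally, the genes most alike to Nnmt, Nampt and Sirt1 were sought by Pearson correlation of log2(FPKM + 1) over the 6 libraries, as a description of samples that share 2 groups and differ between them. Nnmt was closest to Fbp1, a gluconeogenic phosphatase (r = 0.991), Mat1a (r = 0.990) and Klf1 (r = 0.986). Nampt was closest to Tmc7 (r = 0.993), Mthfd2, a mitochondrial folate enzyme (r = 0.991), and Arf6 (r = 0.990). Sirt1 was closest to Cyp27a1, the sterol 27-hydroxylase of bile acid synthesis (r = 0.990), Rdm1 (r = 0.987) and Slc25a33 (r = 0.983). For Sirt1 and these 3 genes celastrol replicate 2 was the highest of the 6 libraries, with Cyp27a1 at 251 FPKM there and 89.9 to 137 FPKM elsewhere. None of these 3 genes passed the test between the groups (adjusted p 0.17, 0.19 and 0.23).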

How the data were processed

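RNA sequencing libraries of frozen mouse liver were grouped and numbered by their titles, with 3 ANIT and 3 ANIT+Celastrol libraries. The authors deposited 1 table of FPKM values with gene symbols per library, per the file headers. Alignment and counting with HISAT2 and featureCounts on mm10 are named, without versions, in the submitters' processing notes. The annotation, gene lengths, strand setting and the step from counts to FPKM were not stated in the labels or headers. No value was below 0.01 FPKM, and a symbol not listed was set to 0. The 2 repeated names were left out.

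The test took genes reaching 1 FPKM in 3 or more libraries, on log2(FPKM + 1), which understates changes of low genes, with limma 3.58.1 in R 4.3.3 (trend, robust variance, group as the only term, two-sided). On simulated data (10593 genes, 200 changed, 5 simulations) the fit recovered 71.2% of 2-fold and 96.0% of 4-fold changes. Of its calls on those data 4.55% were false. The changed genes were drawn only above a set mean level that Sirt6 did not reach, so the recovery does not cover such low genes. In the liver libraries 25.0% of tested genes passed (4.41% higher and 20.6% lower), a larger share than was changed in the simulations. Whether the recovery and false-call rates hold for the liver libraries was not tested. Depth was estimated from the spacing of FPKM values of 0.1 to 1 in genes with 1 transcript of 400 to 2500 bases, and approximate reads from exon lengths of GENCODE release M21 (mm10), which matched 96.3% of symbols and gave the coordinates.

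The 10 genes, the gene lists and the markers were chosen with earlier results of these data known. Named genes were all 10, the 2 smallest p-values of each list, all that passed where 6 or fewer did, and for 3 genes their closest correlates, leaving out unnamed gene models. Other genes in the text were chosen after their values were seen. Alternatives changed the pseudocount, filter, variance model, scaling, test, pairing or left out 1 library.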

Additional observations from a re-analysis of the deposited data

How the results depend on the processing

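The direction of the Nnmt, Nampt, Nmrk1 and Sirt5 differences held in all 17 alternatives (log2 fold change 1.33 to 1.83, -1.32 to -0.83, -0.98 to -0.60 and -0.61 to -0.28). The changes of filter and variance model, the replicate block and the test against a fold of 1.5 leave the log2 fold change as it is. Direction could therefore turn only in the other alternatives. Over all genes, 467 rose and 2185 fell. These became 793 and 1170 under median-ratio scaling, 873 and 952 after quantile normalization, and 47 and 162 against a fold of 1.5, and 3813 fell when rescaled to TPM. Without 1 library 218 to 515 genes rose and 909 to 3326 fell. Of the 10 genes, 0 rose and 0 fell against a fold of 1.5, 1 fell after quantile normalization, and 0 to 4 fell without 1 library. The cause was not tested.

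Signs turned only where a gene did not pass: Sirt2 under median-ratio scaling (0.10) and quantile normalization (0.22), Sirt3 without celastrol replicate 2 (-0.13), Sirt4 when rescaled to TPM (-0.049) and without ANIT replicate 3 (-0.063), Sirt7 after quantile normalization (0.027), and Sirt6 with a pseudocount of 0.1 (-0.002), when rescaled to TPM (-0.10) and on leaving out ANIT replicate 1, ANIT replicate 3, celastrol replicate 1 or celastrol replicate 2 (-0.003, -0.005, -0.069 and -0.051). Without 1 library, Sirt3 ranged from -0.134 to 0.379, Sirt4 from -0.063 to 0.156 and Sirt6 from -0.069 to 0.127.

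The replicate block left 479 genes higher and 2106 lower, with 1 and 3 of the 10 genes, and the calls of Qprt, Got2, Ciart and Serpina1c were lost. Deviations of same-numbered libraries correlated at 0.149, 0.231 and -0.092, and those of differently numbered libraries at -0.243 to 0.18. With 3 libraries per group these values cannot settle whether the numbers pair the samples. The log2 difference in the Nnmt to Nampt ratio was 2.70, and 2.38 to 3.21 without 1 library. Precision is limited by 3 libraries per group and, for Sirt6, Sirt4 and Sirt1, by 101 to 447 estimated reads.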
